A study of Mus musculus with 4 samples.

Results

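The genes described are 8 cytokine chains of the IL-6, IL-10, IL-12 and IL-15 families and the chains of the IL-10 receptor: Il6, Il10, Il12a, Il12b, Il23a, Il27, Ebi3, Il15, Il10ra and Il10rb. They were chosen by gene symbol, and all 10 were found among the 17013 genes with deposited values. RNA was sequenced from macrophages grown with M-CSF from the bone marrow of wild-type male C57BL/6 mice and kept on porous inserts for 24 h, where both groups received artificial necrotic bone fluid (aNBF), an extract of freeze-thawed bone. The control group (Con) was given, beneath the inserts, the middle layer of freeze-thawed abdominal fat and the fat group (Fat) its top layer, with 2 libraries in each group. The comparison of Fat with Con asks how contact with necrotic fat changes expression in macrophages. The labels do not say whether the libraries of a group came from separate cultures or mice, so p-values measure the spread between these samples, which may be technical.

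These cytokines carry messages between macrophages and lymphocytes. Several are made of paired chains: IL-12 joins the products of Il12a and Il12b, IL-23 joins those of Il23a and Il12b, and IL-27 joins those of Il27 and Ebi3. IL-12, IL-23 and IL-27 from macrophages and dendritic cells steer T helper cells, IL-15 sustains NK cells and memory T cells, IL-6 drives the acute phase response, and IL-10 restrains macrophage activation through a receptor of an Il10ra and an Il10rb chain. Their receptors signal through JAK kinases and STAT transcription factors, which SOCS proteins switch off.

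The 4 libraries held between 33573852 and 40785872 reads on genes. The limit of detection used, 3 reads, corresponded to between 0.0732 and 0.0885 CPM (reads scaled by library size and a further factor per library). The comparison used limma on log2(CPM + 0.1) for 12470 genes, those reaching 0.5 CPM in 2 or more libraries, with p-values adjusted over all of them (Benjamini-Hochberg, two-sided). At an adjusted p-value under 0.05, 5.0% of these genes were called lower and 3.99% higher in Fat. All 8 macrophage markers looked for were present, including Lyz2, Csf1r, Cd68 and Emr1, the older symbol of Adgre1. Markers of other cells summed to between 7.07 and 11.9 CPM for T and NK cells, 9.37 and 18.1 CPM for dendritic cells, 18.2 and 23.8 CPM for B cells, 316.3 and 372.2 CPM for neutrophils and 444.8 and 582.3 CPM for stromal and endothelial cells, the last mostly from Col1a1 and Col1a2. Of the stromal markers Dcn was called lower in Fat (log2 fold change -0.82, limma adjusted p = 0.0358) and not by DESeq2. At limma's 0.05 before adjustment, 3 of 6 neutrophil and 0 of 4 B cell markers tested were lower, against 12.4% of all genes tested. In bulk RNA, fewer cells of a type and less RNA per cell cannot be told apart.

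Of the 10 genes, 5 passed the filter on low values (Il10rb, Il10ra, Ebi3, Il15 and Il27) and 5 stayed under it (Il10, Il12b, Il12a, Il6 and Il23a). Of the 5 tested, limma called 2 lower in Fat, namely Il27 and Il15, and 0 higher, against 5.0% and 3.99% of all genes tested. Calls of higher were also 0 by edgeR, by DESeq2 and with limma's p-value of at most 0.05 left unadjusted. The median log2 fold change of the 5 was -0.27, against 0.01 for all genes tested. In 4 of the 5, both Fat libraries lay below both Con libraries, an arrangement found in 26.2% of all genes tested. Il10rb alone of the 5 overlapped between the groups.

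**Figure D1:**
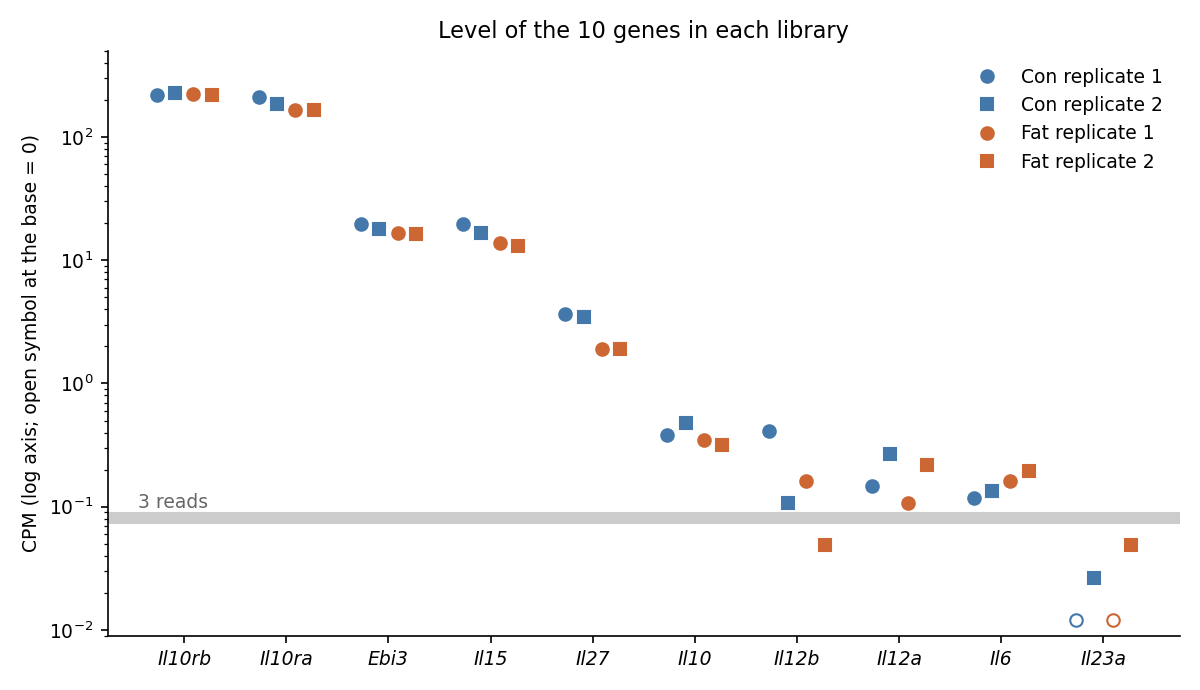
CPM (log axis) of the 10 genes in each library, with the genes ordered by their Con mean, blue for Con, orange for Fat, circles for replicate 1 and squares for replicate 2. The grey band marks 3 reads, open symbols stand for 0 reads, and the levels run from 227.4 CPM for Il10rb down to 0 for Il23a.

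The levels of the 10 genes were compared with each other on the TPM scale, which also corrects for gene length. In Con the order was Il10rb at 261.7 ± 2.97 TPM (SD, n = 2), Il10ra at 123.2 ± 12.7 TPM, Ebi3 at 34.7 ± 2.92 TPM, Il15 at 30.6 ± 4.27 TPM and Il27 at 10.9 ± 0.501 TPM. Il10rb had a higher TPM level than 96.1% of the genes tested, Il10ra than 90.0%, Ebi3 than 67.2%, Il15 than 61.7% and Il27 than 33.4%, over all 4 libraries. Below these came Il10 at 0.715 ± 0.103 TPM, and Il12a, Il12b and Il6 at between 0.25 and 0.326 TPM, neighbours that overlapped. In Fat, Il10 was at 0.564 ± 0.0378 TPM and Il6, Il12a and Il12b followed at 0.363 ± 0.0493, 0.264 ± 0.128 and 0.119 ± 0.090 TPM, each overlapping the next. Il23a was the lowest in both groups. Ebi3 and Il15 overlapped in Con as well, but not in Fat, where they stood at 31.1 ± 0.134 and 23.0 ± 0.822 TPM. The cultures thus held the RNA of both IL-10 receptor chains at a high level, that of IL-10 itself at a low level, and those of Ebi3, Il15 and Il27 in between.

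Il27 encodes p28, the chain specific to IL-27. Its level was 3.63 and 3.47 CPM in the Con libraries and 1.90 CPM in each Fat library, values being given in the order of the replicate numbers throughout. Both Fat libraries were lower, with no overlap. This was a log2 fold change of -0.86 with a standard error of 0.15 (95% interval -1.22 to -0.51, limma adjusted p = 0.017), which is 0.549-fold. These values rest on 123 and 130 reads in Con against 71 and 78 reads in Fat, with exact 95% Poisson intervals of 55.5 to 89.6 and 61.7 to 97.3 reads for the Fat libraries, which cover counting error only since the reads carry no molecular identifiers. The spread of these intervals is wider than the gap between the Fat libraries. Il27 was called in 14 of the 15 alternative analyses that could test it. It was not called without Con replicate 1 (adjusted p = 0.0712), and without the mean-variance trend it was just inside the threshold (adjusted p = 0.04997).

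The gene Apobr, a lipoprotein receptor of macrophages, lies on the opposite strand with exons that share 103 of the 1021 exonic bases of Il27 (10.1%) in the GENCODE vM21 annotation. The kit keeps the strand, but whether the reads were counted by strand is not given in the sources used here, so some reads could belong to either gene. Apobr was at 147.0 and 146.9 CPM in Con against 156.2 and 156.3 CPM in Fat. Its log2 fold change of 0.09 was opposite in sign to that of Il27 and was not called (limma adjusted p = 0.34). Apobr was far above Il27 in level, and the share of its reads in the Il27 values was not tested.

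Ebi3 encodes the partner of p28, a chain related to soluble cytokine receptors. It was at 19.7 and 17.8 CPM in Con against 16.5 and 16.4 CPM in Fat. Both Fat libraries were lower than both Con libraries, which were further from each other than the lower of them was from Fat. The log2 fold change was -0.19 (95% interval -0.38 to 0.0045) and was not called (limma adjusted p = 0.217), nor was it in any of the 16 alternatives (adjusted p between 0.114 and 0.624). Without Con replicate 1 the log2 fold change was -0.12. An antisense gene, Gm16712, covers 23.4% of its exonic bases and had at most 0.24 CPM in any library. The ratio of Il27 to Ebi3 RNA on the TPM scale was 0.306 and 0.323 in the Con libraries and 0.192 and 0.193 in the Fat libraries. The ratio was lower in both Fat libraries, and an exact two-sided permutation test of 2 against 2 libraries cannot give a p-value below 0.333.

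Il15 encodes IL-15, which cells present to lymphocytes on the receptor chain Il15ra. It was at 19.7 and 16.5 CPM in Con against 13.7 and 13.0 CPM in Fat. Both Fat libraries were lower, and the Con libraries were further apart than the Fat ones. This was a log2 fold change of -0.43 with a standard error of 0.10 (95% interval -0.68 to -0.19, limma adjusted p = 0.0436), which is 0.74-fold. Il15 was close to the threshold: it was called in 10 of 16 alternatives, and not with the TPM values (adjusted p = 0.0789), without a filter (0.0578) or without the mean-variance trend (0.146). Without Con replicate 1 the adjusted p-value was 0.178, without Fat replicate 1 it was 0.0626 and without Fat replicate 2 it was 0.147, while the log2 fold change stayed between -0.56 and -0.31.

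Il10ra, the chain that binds IL-10, was at 211.1 and 186.0 CPM in Con against 164.3 and 164.7 CPM in Fat. Both Fat libraries were lower than both Con libraries. The log2 fold change of -0.27 (standard error 0.07, 95% interval -0.43 to -0.11) just missed the threshold (limma adjusted p = 0.0565). It passed in 6 of the 16 alternatives, among them DESeq2 (adjusted p = 0.02), and missed the threshold in 10, among them the TPM values (0.137) and the fit with no mean-variance trend (0.198). Among fits with 1 library left out, the one without Con replicate 2 passed (0.00901) and those without Con replicate 1, Fat replicate 1 and Fat replicate 2 did not (0.183, 0.124 and 0.168). Without Con replicate 1 the log2 fold change was -0.18. With limma's p-value left unadjusted, Il27, Il15 and Il10ra were at or under 0.05 and lower, as were 12.4% of all genes tested.

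Il10rb, the chain that the IL-10 receptor shares with the receptors of IL-22 and the lambda interferons, was at 219.5 and 227.4 CPM in Con against 224.2 and 218.2 CPM in Fat. The groups overlapped. The log2 fold change was -0.01 with a 95% interval of -0.14 to 0.11 (limma adjusted p = 0.907), and with the TPM values its sign turned to 0.02. The ratio of Il10ra to Il10rb on the TPM scale was 0.509 and 0.433 in Con and 0.388 and 0.40 in Fat. In the annotation 14.9% of the exonic bases of Il10rb are shared with Gm21970 on the same strand, so reads on that stretch are uncertain. Gm21970 was not among the genes with deposited values.

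The remaining 5 genes were so low that counting error decides what can be said of them. Il10 had 13 and 18 reads in Con against 13 reads in each Fat library. Its rate in Fat was 0.765 times that in Con, with an exact 95% counting interval of 0.436 to 1.33. Il6 had 4 and 5 reads in Con against 6 and 8 reads in Fat, a ratio of 1.42 (0.572 to 3.71). On the CPM scale both Fat libraries lay below both Con libraries for Il10 and above them for Il6, but both intervals included 1, and a difference was not detectable at this depth.

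Il12a, the p35 chain of IL-12, had 5 and 10 reads in Con against 4 and 9 reads in Fat, a ratio of 0.79 (0.346 to 1.78), and the groups overlapped. Il12b, the p40 chain that IL-12 and IL-23 share, had 14 and 4 reads in Con against 6 and 2 reads in Fat. Its ratio was 0.405 (0.152 to 0.979), but Con replicate 1 alone held 14 of the 26 reads and the groups overlapped. Il23a, the p19 chain of IL-23, had 0 and 1 reads in Con against 0 and 2 reads in Fat and was not detected in either group. So of the chains of IL-12 and IL-23, none reached 0.5 CPM in any library.

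Fitted without a filter, 0 of these 5 genes were called by limma (adjusted p between 0.483 and 0.869), 0 had a p-value under 0.05 before adjustment, and edgeR's quasi-likelihood test on the recovered reads also called 0 (adjusted p between 0.482 and 0.90). In those fits 5.61% and 9.96% of all 17013 genes were called.

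Next, the receptor chains, kinases, STAT factors and SOCS inhibitors through which these cytokines act were examined as a list of 20 genes. The filter left 19, of which limma called 8 lower in Fat, against 5.0% of all genes, and 0 higher. At 0.05 before adjustment 11 were lower, against 12.4% of all genes tested, and 0 higher, against 1467 of 12470. DESeq2 and edgeR also called 0 higher. The median log2 fold change of the 19 was -0.34. With the TPM values 3 were called lower, without Con replicate 1 there were 2, without Fat replicate 2 there were 3, and without the mean-variance trend 0. Calls of lower over all genes fell in these fits too, from 624 to 366 with the TPM values and to 12 without the trend. Without that trend 0 genes of the other pathway lists below were called either.

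Il12rb1, Il12rb2 and Il27ra, receptor chains of the IL-12 and IL-27 group, were low in level, and Il12rb2 and Il27ra were called lower in Fat. Il12rb2, the signalling chain of the IL-12 receptor, was at 3.98 and 5.01 CPM in Con against 2.36 and 1.93 CPM in Fat (log2 fold change -1.03 with a standard error of 0.18, limma adjusted p = 0.0164). Il27ra, the specific chain of the IL-27 receptor, was at 7.90 and 7.52 CPM in Con against 5.06 and 5.46 CPM in Fat (log2 fold change -0.54, adjusted p = 0.027). Leaving out any single library took Il27ra above the threshold, with adjusted p-values between 0.0525 and 0.112. Il12rb1, which IL-12 and IL-23 receptors share, had a log2 fold change of -0.62 and was not called (adjusted p = 0.054). Il23r was not detected, with at most 2 reads in a library.

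Lymphocytes carry these receptors too, and the summed level of 7 T and NK cell markers was 11.9 and 10.6 CPM in the Con libraries and 7.72 and 7.07 CPM in the Fat libraries. Of these markers 5 passed the filter, with a median log2 fold change of -0.62, and 0 were called by limma, by DESeq2 or by edgeR's quasi-likelihood test. At 0.05 before adjustment 3 of the 5 were lower, against 12.4% of all genes tested, and edgeR's exact test also called 3 lower. The part of these cells in the receptor values was not tested.

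For IL-15, Il15ra was at 12.8 and 10.2 CPM in Con against 8.14 and 6.68 CPM in Fat (log2 fold change -0.62, limma adjusted p = 0.0389). Il2rg, the signalling chain shared with several lymphocyte cytokines, differed by -0.39 on the log2 scale (adjusted p = 0.0318). Il2rb, the other signalling chain, had a log2 fold change of -0.34 and was not called (adjusted p = 0.165). The calls of Il15ra and Il2rg were lost without Con replicate 1 (adjusted p = 0.141 and 0.0921) and without Fat replicate 2 (0.138 and 0.125).

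Neither chain of the IL-6 receptor was called. Il6ra was at 49.2 and 45.4 CPM in Con against 47.6 and 43.2 CPM in Fat, and Il6st, the gp130 chain common to the IL-6 family, at 163.6 and 179.8 CPM in Con against 171.9 and 156.2 CPM in Fat. For both genes the groups overlapped. The 95% intervals of their log2 fold changes ran from -0.23 to 0.11 and from -0.23 to 0.10 (limma adjusted p = 0.68 and 0.628).

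**Figure D2:**
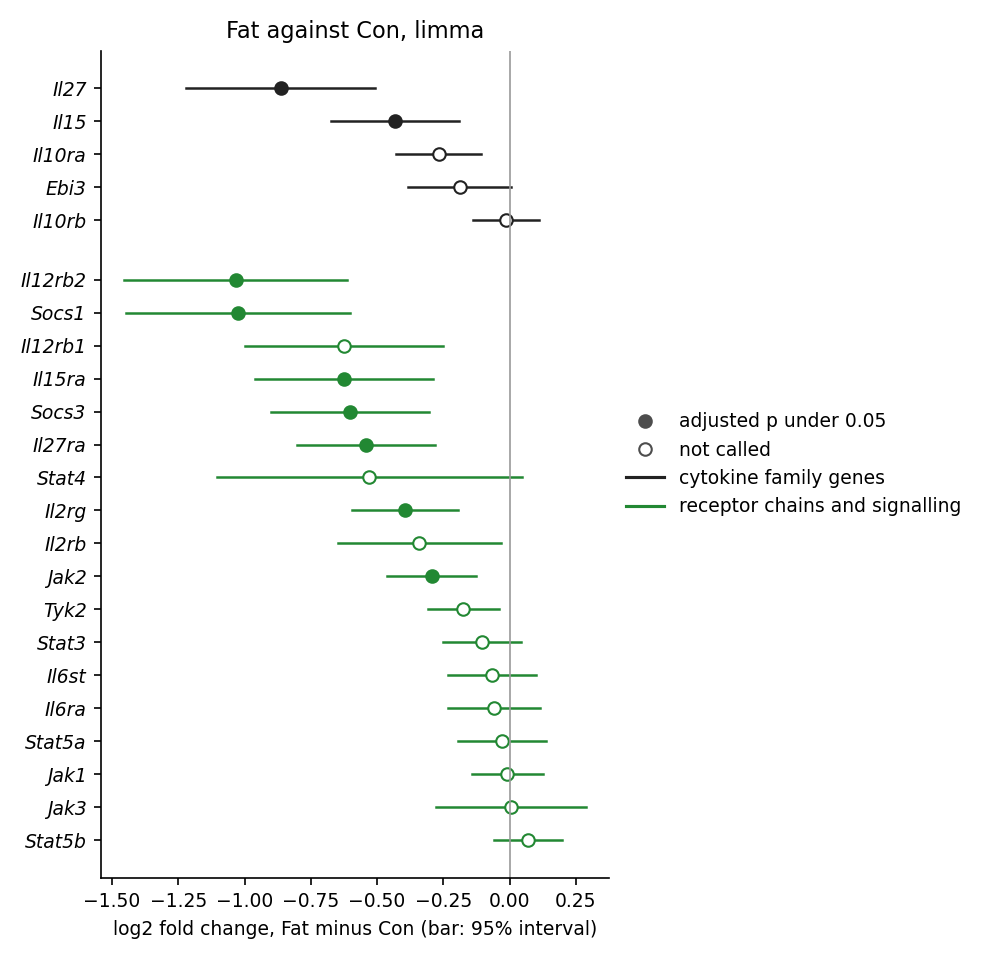
Log2 fold change of Fat minus Con from limma for the 5 cytokine family genes tested (black) and 18 of the receptor and signalling genes tested (green), with 95% intervals as bars and filled points for an adjusted p under 0.05. The 9 filled points all lie below 0, from -0.29 for Jak2 to -1.03 for Il12rb2.

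Inside the cell, the called genes included SOCS inhibitors and a kinase. The inhibitor Socs1 was at 4.33 and 3.81 CPM in Con against 2.22 and 1.71 CPM in Fat (log2 fold change -1.02, limma adjusted p = 0.017, and 0.0635 without Con replicate 1). Jak2 differed by -0.29 on the log2 scale (adjusted p = 0.0476), and was not called without Con replicate 1 (0.169) or without Fat replicate 2 (0.222). Stat3, which IL-6 and IL-10 activate, had a log2 fold change of -0.10 with a 95% interval of -0.25 to 0.04 (adjusted p = 0.368), and Jak1 one of -0.01 (adjusted p = 0.955).

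Of 16 transcription factors known to act on these cytokine genes, 3 were called lower and 0 higher in Fat by limma (5 lower and 1 higher at 0.05 before adjustment). Of all 12470 genes tested, 5.0% were called lower and 3.99% higher, and before adjustment 12.4% were lower and 1467 genes higher. DESeq2 called 2 lower and 0 higher, edgeR's exact test 4 lower and 0 higher, and limma 5 lower and 1 higher without Con replicate 2, with the same counts without Fat replicate 1. The median log2 fold change of the 16 was -0.13. Irf1 and Irf8 were among the 3. Irf1, an interferon-induced factor known to act on Il27, Il12a and Il15, was at 366.9 and 361.8 CPM in Con against 224.3 and 180.0 CPM in Fat (log2 fold change -0.86 with a standard error of 0.10, adjusted p = 0.00447). Irf8, its partner in myeloid cells, was at 216.5 and 234.4 CPM in Con against 153.9 and 168.8 CPM in Fat (log2 fold change -0.48, adjusted p = 0.00826). Of the NF-kB subunits, Rela differed by -0.03 on the log2 scale (95% interval -0.15 to 0.10, adjusted p = 0.825) and Rel by 0.03 (-0.22 to 0.28, adjusted p = 0.898). Nfkb1 was lower in both Fat libraries without being called (log2 fold change -0.21, adjusted p = 0.0859).

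Of 10 genes known to be induced by IL-10 in macrophages, 2 were called higher and 2 were called lower, against 3.99% and 5.0% of all genes tested, and the median log2 fold change of the list was 0.02. Before adjustment 3 were higher and 2 lower at 0.05, against 1467 and 1541 of the 12470 genes tested. The additional gene was Zfp36, which destabilizes cytokine mRNAs (log2 fold change 0.29, limma adjusted p = 0.132). Without Con replicate 1 or Fat replicate 2, and with the TPM values, 0 were called lower by limma, and without Con replicate 2 or Fat replicate 1 there were 3 higher and 1 lower. Il1rn, the antagonist of the IL-1 receptor, was at 176.3 and 184.4 CPM in Con against 502.1 and 387.9 CPM in Fat (log2 fold change 1.29 with a standard error of 0.11, limma adjusted p = 0.00286). Hmox1, which degrades heme, was at 1242 and 1384 CPM in Con against 2544 and 2518 CPM in Fat (log2 fold change 0.95, adjusted p = 0.00286). Socs3, the inhibitor of gp130 signalling, was at 13.3 and 13.0 CPM in Con against 9.81 and 7.63 CPM in Fat (log2 fold change -0.60, adjusted p = 0.0298). Il4ra, a chain of the IL-4 receptor, differed by -0.24 on the log2 scale (adjusted p = 0.0366). Both are counted in other lists as well, Socs3 among the receptor and signalling genes and Il4ra among the common gamma chain genes. Socs3 was not called without Con replicate 1 (0.0782) or Fat replicate 2 (0.0942). The call of Il4ra was lost whichever library was left out, with adjusted p-values between 0.0578 and 0.211. Bcl3, Nfil3, Etv3 and Sbno2 were not called, with log2 fold changes between -0.09 and 0.05.

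**Figure D3:**
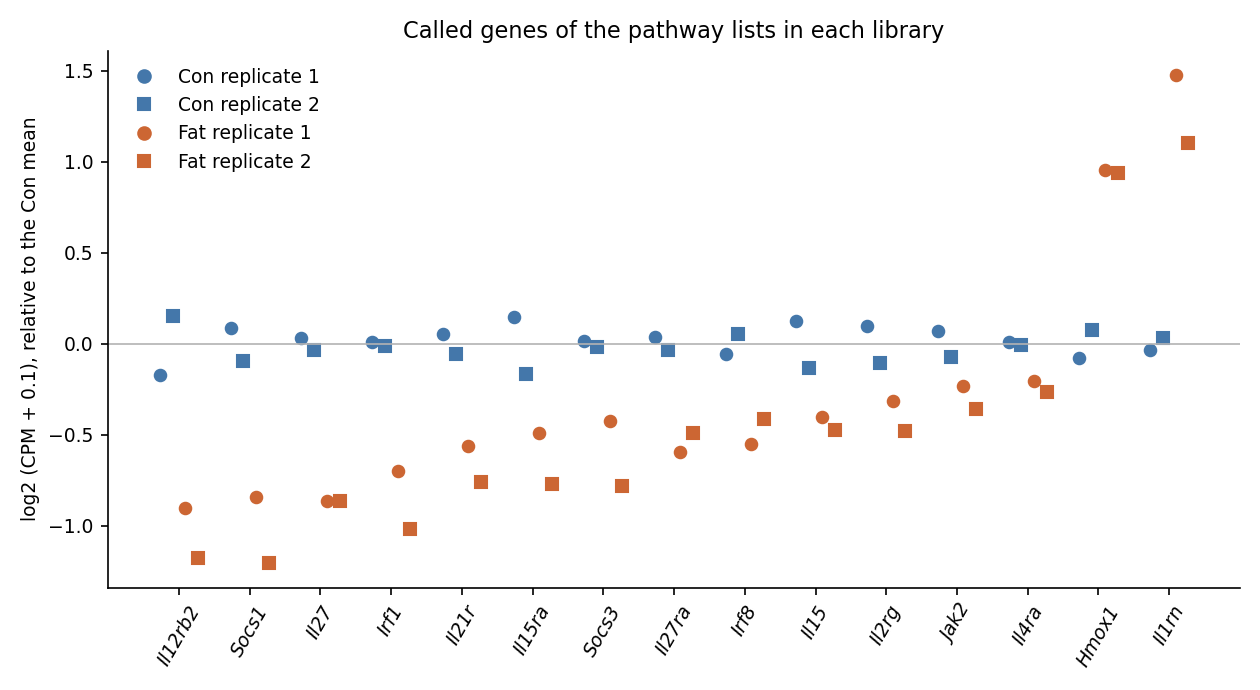
Log2(CPM + 0.1) of each library relative to the log2 of the Con mean for 15 called genes of the cytokine family and its pathway lists, ordered by fold change, with blue for Con and orange for Fat. For 13 genes both Fat libraries lie below both Con libraries, and for Hmox1 and Il1rn both lie above. Only called genes are drawn, so this separation was largely set by the choice of genes.

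Adipocyte markers other than Fabp4, which macrophages express as well, summed to 0.177 and 0.187 CPM in the Con libraries and 11.3 and 5.81 CPM in the Fat libraries. The share of adipose RNA in the values of Il6 and Il15, which adipose tissue can express, was not tested. The 8 macrophage markers summed to 35962 and 33920 CPM in Con and 28504 and 26918 CPM in Fat, mostly from Lyz2. Among the 8, Fcgr1 and Mertk were called lower, against 5.0% of all genes tested (log2 fold changes -0.88 and -0.31, limma adjusted p = 0.0123 and 0.0289). The other 6 were not called, with log2 fold changes from -0.41 for Lyz2 to 0.09 for Cd68. In 6 of the 8 both Fat libraries lay below both Con libraries, against 26.2% of all genes tested. At 0.05 before adjustment 5 of the 8 were lower, against 12.4% of all genes tested. Dendritic cells also make IL-12, IL-27 and IL-15, and 7 of their markers summed to 18.1 and 13.9 CPM in Con and 12.5 and 9.37 CPM in Fat, mostly from Clec9a, with Flt3, Xcr1 and Cd209a at 3 reads or fewer in every library. The part of these cells, or of the macrophage share, in the values of Il27, Il15 and Il10ra was not tested.

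**Figure D4:**
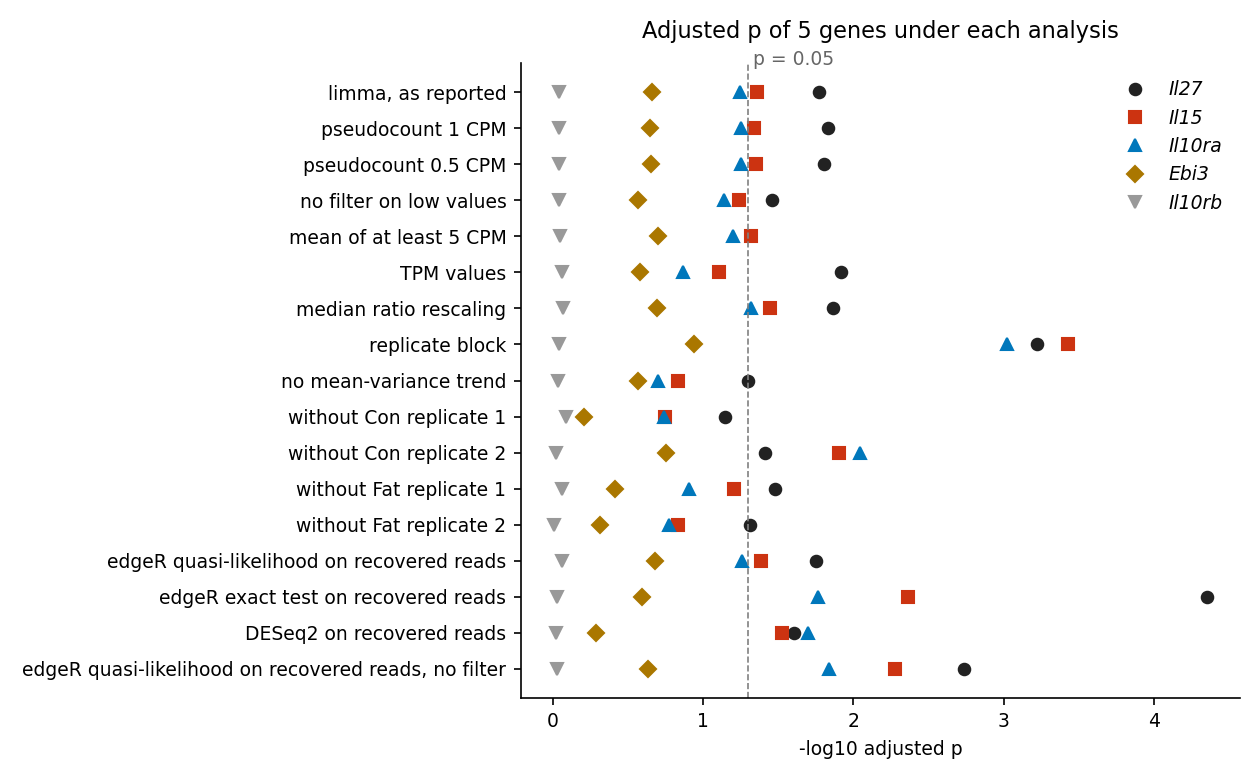
Minus log10 of the adjusted p-value of the 5 genes tested under the reported limma analysis and 16 alternatives, with a dashed line at 0.05. Il27 lies right of the line except without Con replicate 1, Il15 and Il10ra fall on both sides, and Ebi3 and Il10rb stay left of it. Il27 has no point for the mean of at least 5 CPM, which it did not reach.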

How the data were processed

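RNA-seq values of 2 Con and 2 Fat libraries were used, grouped by the sample titles. The deposited CPM values are reads per gene that the authors scaled by library size and a further factor per library. That factor, between 0.9903 and 1.0102, equalled edgeR's TMM normalization factor of the recovered reads in every library. The TPM values deposited by the authors are also scaled for gene length. The build is GRCm39 per the submitters' processing notes, and the aligner and annotation are not given in the sources used here. All CPM values were whole multiples (within 0.001) of the value of 1 read, so reads were recovered. limma 3.58.1 (R 4.3.3, mean-variance trend) was fitted to log2(CPM + 0.1) over all genes passing the filter. edgeR 4.0.16 and DESeq2 1.42.0, applied to the recovered reads, other pseudocounts, filters and scalings, a replicate block and the omission of each library were alternatives. Tests were checked on simulated data. Exon overlap was read from GENCODE vM21, whose build differs, so no coordinates are given. The genes, lists and tests were chosen with earlier results of these data known. Of each list, up to 4 called genes per direction with the smallest adjusted p-value are named, except 1 gene that is counted in its lists but not reported here. Il15ra, Il2rg, Il2rb, Il12rb1, Il23r, Il6ra, Il6st, Jak1, Jak2, Stat3 and the NF-kB subunits were named after their values were seen. So were the uncalled IL-10 response genes, Clcf1, Lif, Osm, Il20rb, Il7r, Apobr and the marker genes. Counting intervals came from scipy 1.17.1 and figures from matplotlib 3.10.9, under Python 3.11.15.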

Additional observations from a re-analysis of the deposited data

How the results depend on the processing

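Of the 5 genes tested, Il27, Il15, Il10ra and Ebi3 were lower in Fat under every alternative run. The number called lower, 2, became 1 without a filter, with a mean of at least 5 CPM, with TPM and without the mean-variance trend, and ran from 0 to 3 with each library left out in turn. The sign of Il10rb turned with TPM (0.018), and with each library left out its log2 fold change ran from -0.040 to 0.011. With the replicate block, Il10ra was called as well (adjusted p = 0.000947), and of the transcription factors 6 were lower and 2 higher. Across all genes, 498 higher and 624 lower calls became 1278 and 1242 with the block, which held all 1122 earlier calls, and 19 and 12 without the trend. They were 1467 and 1541 at 0.05 before adjustment, 366 lower with TPM and 782 higher with edgeR's quasi-likelihood test without a filter, an alternative added after the data were seen. With each library left out they ran from 216 to 519 higher and from 313 to 612 lower. Whether same-numbered libraries share a mouse, culture or fat batch is not given by the labels. Their deviations had a correlation of 0.20 across genes, which cannot settle it. A fit without a library assumes that the lone sample varies like the other group. Depth limits the 5 genes under the filter, which had at most 18 reads in a library.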

Other observations

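Related cytokine systems were also read. Of 11 further ligands and receptor chains that share gp130, 8 passed the filter and limma called 0. Before adjustment 1 was higher and 2 lower at 0.05, against 1467 and 1541 of the 12470 genes tested. Clcf1, a ligand of the ciliary neurotrophic factor receptor, was at 5.16 and 5.68 CPM in Con against 7.34 and 10.7 CPM in Fat. It was the gene called higher by DESeq2 and by edgeR's quasi-likelihood and exact tests, with a limma log2 fold change of 0.70 (adjusted p = 0.052), which was 0.43 without Fat replicate 2 (adjusted p = 0.198). No tool called any lower. Lif and Osm, the leukemia inhibitory factor and oncostatin M, had log2 fold changes of -0.29 and -0.27 and were not called. Of 9 further genes of the IL-10 family, 6 were listed and 1, the receptor chain Il20rb, passed the filter (log2 fold change -0.26, adjusted p = 0.438).

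Of 10 further ligands and receptors of the common gamma chain, 6 passed the filter and 2 were called lower in Fat, Il4ra and Il21r, against 5.0% of all genes tested. Without Con replicate 1, Fat replicate 1 or Fat replicate 2 the call of Il21r alone was left. Il21r, the receptor of IL-21, was at 152.4 and 141.1 CPM in Con against 99.2 and 86.4 CPM in Fat (log2 fold change -0.66 with a standard error of 0.08, limma adjusted p = 0.00497). Among the alternatives it was not called without the mean-variance trend (adjusted p = 0.0841). Il7r, the receptor of IL-7 and among the highest of these receptors, overlapped between the groups at 435.1 and 517.4 CPM in Con against 512.7 and 459.9 CPM in Fat.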
